A study of Macaca fascicularis with 23 samples.

Results

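Notch signalling passes between touching cells. A ligand such as DLL1 on one cell binds a receptor such as NOTCH2 on its neighbour, the γ-secretase complex then cuts the receptor inside the membrane, and the freed intracellular part joins the DNA-binding protein RBPJ to switch on target genes. The best known targets are the HES and HEY repressors, which hold back differentiation genes, above all those of the neural lineage. In primate pluripotent stem cells the pathway is known mainly for its part in the exit towards the neural fate.

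The 9 genes described here are 1 receptor (NOTCH2), 1 ligand (DLL1), a sugar transferase that modifies the receptor (LFNG), a subunit of γ-secretase (NCSTN), the nuclear partner of the receptor (RBPJ) and 4 repressors of the HES and HEY family (HES1, HES4, HES5 and HEY2). They were chosen by name, with earlier results of these data known, and all 9 were found among the 8415 genes analysed here. These genes are part of the transcriptome, so shares of genes and counts from gene lists cover only this part. Symbols identified 7 of them, and NOTCH2 and NCSTN were identified by gene ID, since the table lists them as LOC101864989 and LOC101865834. Other genes of the pathway were taken from a list that is described after the members.

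Cynomolgus monkey (Cm) pluripotent stem cells (PSCs) were profiled by SC3-seq, an RNA-seq method that reads transcript 3′ ends from 1 ng of RNA, and values are RPM (reads scaled by the number mapped in the library). The 21 PSC libraries comprised 3 ESC lines (CMK6, TRSK and CMK9) and 4 iPSC lines, each grown in 3 media, and every line gave a single library in each medium. The iPSC lines L3 and L6 came from the liver, and S6 and S12 from the stomach, of the same female foetus, so that these 4 lines share 1 donor, and they were reprogrammed with episomal vectors for L-MYC, LIN28, KLF4, SOX2 and OCT3/4 and a short hairpin RNA to p53. The study's text and supplement place the vector for OCT3/4 and the hairpin still in lines L3 and L6 and in a stomach line, which the text gives as S6 and the supplement as S12. Another 2 libraries held cultured somatic cells of that foetus, 1 labelled liver and 1 labelled stomach, in a serum medium with hepatocyte and epidermal growth factors.

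Primed cells grew in bFGF/KSR medium. Naïve-like cells grew in K5cLD, a medium with the inhibitors and activators Gö6983, forskolin, kenpaullone, CHIR99021 and SB590885 plus LIF and doxycycline (Dox), and carried piggyBac transgenes for human KLF2 and NANOG that Dox switches on, with an EOS-GFP reporter and its rtTA activator. Differentiated cells were these converted cells in K5c, the same medium after LIF and Dox were removed. The study also describes a DsRed vector for ESC lines that iPSC lines did not receive. It does not say whether the sequenced ESC lines carried it. Before RNA was isolated, all PSCs were grown for some passages without feeder cells on recombinant laminin. The comparison of naïve-like with primed cells therefore differs in medium and in transgene expression at once, and that of differentiated with naïve-like cells in LIF, Dox and transgene expression.

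Depth ran from 861000 to 7986000 reads per library with a median of 3004000, and values below 3 reads (0.38 to 3.49 RPM, depending on the library) were treated as not detectable at this depth. Of the 12 listed pluripotency markers 7 were analysed here, and their summed level was 788.8 to 2473 RPM in primed, 1679 to 2683 RPM in naïve-like and 1027 to 2138 RPM in differentiated libraries, against 1.76 RPM in the liver and 0.973 RPM in the stomach library. In differentiated cells the sum was mostly LIN28A (median 1086 RPM) and SOX2 (471.3 RPM). The medians of the other 5 markers were lower there than in naïve-like cells, with POU5F1 at 20.2 against 289.4 RPM, DPPA4 at 29.3 against 156.4 RPM, L1TD1 at 27.0 against 123.0 RPM, CRIPTO at 0.999 against 104.5 RPM and HESX1 at 0 against 58.2 RPM. The liver library held none of the 3 measured hepatocyte markers (ALB, AFP and APOA2 were all at 0), so it is called by its label only. Its sum of the mesenchymal markers COL1A2, TWIST1 and PDGFRA was 4854 RPM. Nearly all of that was COL1A2 (4832 RPM), with PDGFRA at 21.1 RPM and TWIST1 at 0.587 RPM, below 3 reads. The stomach library held 587.3 RPM of 6 gastric epithelial markers and 4522 RPM of the mesenchymal ones. Of the gastric markers TFF1, TFF2, CLDN18 and CTSE were at 89.5 to 188.1 RPM, MUC1 was at 2.92 RPM and PGC at 0. Of the mesenchymal markers COL1A2 was at 4506 RPM, PDGFRA at 9.73 RPM and TWIST1 at 5.84 RPM. The mesenchymal sum was 25.6 to 584.6 RPM in primed (median 87.4), 25.6 to 94.1 RPM in naïve-like (median 52.1) and 11.7 to 268.4 RPM in differentiated libraries (median 111.4). The numbers in the library names follow the conditions, so library batch and condition cannot be told apart. In these bulk samples fewer cells that express a gene and less RNA per cell cannot be told apart either.

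Genes were compared on the log2(RPM + 1) scale with limma, in 1 fit of the 3 conditions (7 libraries each), with Benjamini-Hochberg adjusted p under 0.05 as the threshold. A gene counted as expressed above 15 RPM in at least 1 PSC library, which 2776 of 8415 genes did. NOTCH2, RBPJ and NCSTN passed in all 21 PSC libraries. HES1 passed through 8 libraries, 4 primed and 4 differentiated, DLL1 through 4 libraries, 1 primed and 3 differentiated, and LFNG through 2 libraries, both primed. For these 3 genes the filter thus rests on conditions in which they are high. HES4, HES5 and HEY2 did not pass, and their values and adjusted p come from the fit without the filter, over 5981 genes.

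In the naïve-like cells 3 of the 6 expressed members were lower than in primed cells (HES1, LFNG and NCSTN) and 0 were higher, against 8.18% of all expressed genes lower and 11.1% higher. The low gene HEY2 was higher. When LIF and Dox were removed, HES1 and HES4 rose and RBPJ and HEY2 fell. NOTCH2 and DLL1, the receptor and the ligand, passed the test in none of the 3 comparisons. The 3 comparisons share their groups of libraries and are not independent of each other. Since the members were chosen with earlier results of these data known, their counts, here and below, are no test against the shares of all genes. In addition, HES1, LFNG and DLL1 passed the filter through no naïve-like library. The plot of all members by library shows every value.

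**Figure D1:**
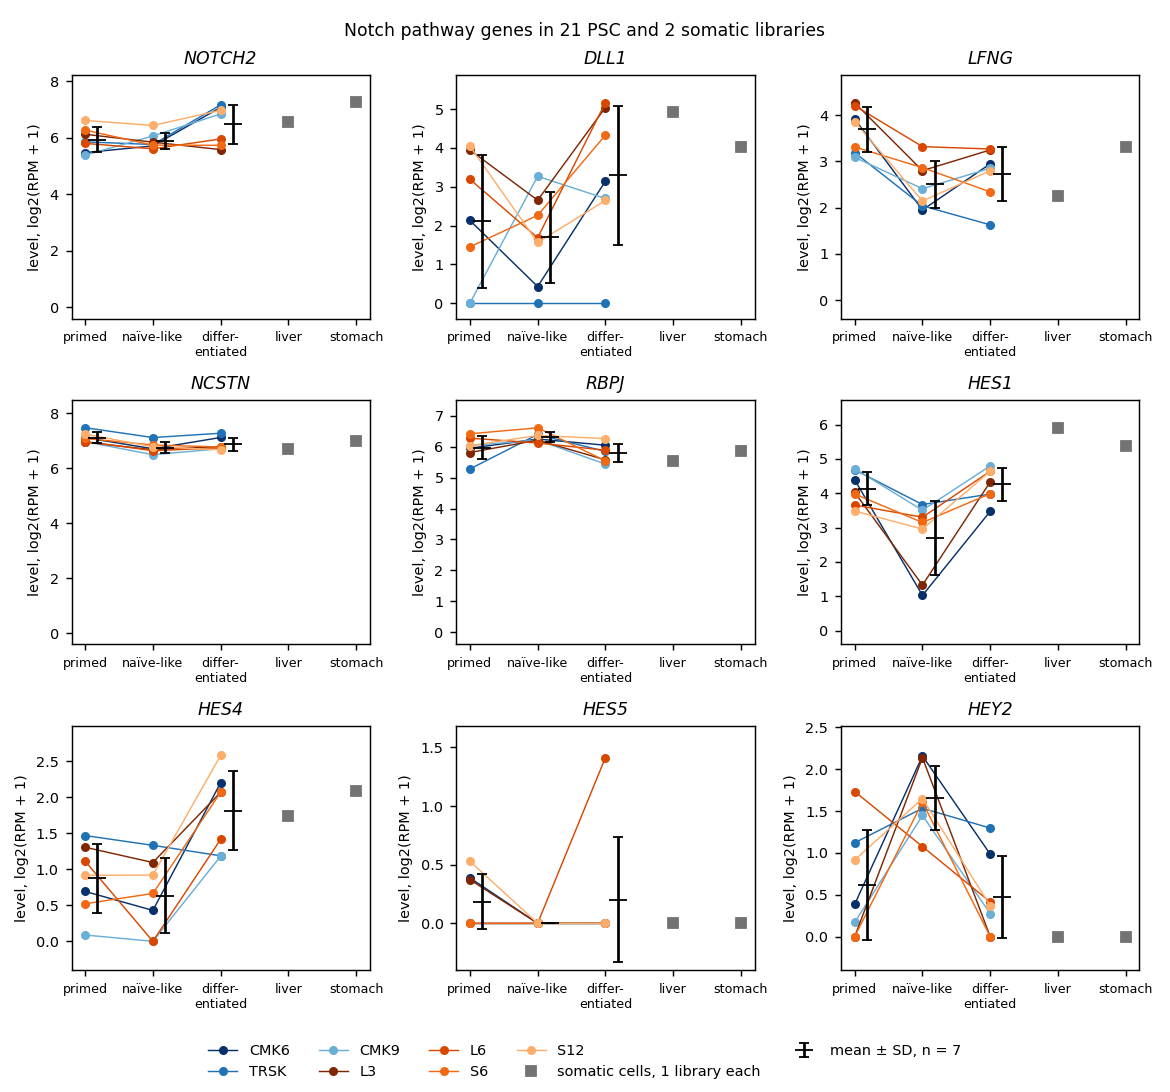
Level of each of the 9 genes as log2(RPM + 1) on the vertical axis, in primed, naïve-like and differentiated libraries and in the liver and stomach libraries. Points are libraries, joined by line across the 3 media, with ESC lines in blue and iPSC lines in orange, and black marks give the mean ± SD of 7 lines. HES1 dips in all 7 lines in the naïve-like condition, while HEY2 is highest there on average (1.66 ± 0.38), and the vertical scales differ between genes.

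NOTCH2 is a transmembrane receptor of the pathway. Its level was 40.7 to 96.6 RPM in primed cells (median 56.7), 47.7 to 85.3 RPM in naïve-like cells (median 53.1) and 46.8 to 141.9 RPM in differentiated cells (median 113.5). On the log2 scale these were 5.93 ± 0.44, 5.88 ± 0.28 and 6.47 ± 0.69 (SD, n = 7 each). The groups overlapped in every comparison. The level in the liver library, 92.2 RPM, was above 16 of the 21 PSC libraries, and that in the stomach library, 152.1 RPM, above all 21. The difference of naïve-like minus primed was -0.05 (SE 0.24, adjusted p = 0.91), that of differentiated minus naïve-like 0.59 (SE 0.24, adjusted p = 0.111) and that of differentiated minus primed 0.54 (SE 0.24, adjusted p = 0.145).

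NOTCH2 varied widely between the differentiated libraries, of which each line had 1. It was at 133.2 RPM in CMK6, 141.9 RPM in TRSK and 113.5 RPM in CMK9, the 3 ESC lines, and at 123.9 RPM in S12. The other 3 iPSC lines stood far below, with 46.8 RPM in L3, 60.9 RPM in L6 and 52.0 RPM in S6. The order was not the same in primed cells. There L3 (68.5 RPM) and S6 (76.0 RPM) were above the 3 ESC lines (40.7 to 56.7 RPM), and L6 (54.6 RPM) was within their range. Differentiated L3 and S6 were also the shallowest libraries of that condition (941000 and 942000 reads), while L6 had 3004000 reads, and L3, L6 and S6 are also the lines that the study's text gives as keeping the OCT3/4 vector, whereas its supplement gives S12 in place of S6. The parts of depth and of the vector in this split were not tested. In the ESC lines alone, in a fit with 6 groups of cell type by condition, the difference of differentiated minus primed was 1.45 (SE 0.29, adjusted p = 0.00663, higher in 3 of 3 lines) and that of differentiated minus naïve-like 1.18 (SE 0.29, adjusted p = 0.0179, higher in 3 of 3 lines). In the iPSC lines they were -0.14 (SE 0.25, adjusted p = 0.781) and 0.15 (SE 0.25, adjusted p = 0.826). The test of the difference between cell types itself gave -1.60 for differentiated minus primed (SE 0.38, adjusted p = 0.276 over all genes), so a different response of ESCs and iPSCs was not called. For differentiated minus naïve-like it gave -1.03 (SE 0.38, adjusted p = 0.999). Of 27 such tests over the 9 members and 3 comparisons 0 were called by limma. Over the 2776 expressed genes 0 were called in any comparison either, with 133, 109 and 262 genes below an unadjusted p of 0.05. The annotated gene of NOTCH2 overlaps 1 other protein-coding gene, and reads were assigned without strand.

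DLL1 encodes a ligand that activates Notch receptors. It ranged from 0 to 15.5 RPM in primed cells (median 3.38), from 0 to 8.64 RPM in naïve-like cells (median 2.22) and from 0 to 34.95 RPM in differentiated cells (median 7.83). No other member varied so much between lines, with SDs of 1.71, 1.17 and 1.79 on the log2 scale around means of 2.11, 1.69 and 3.29 (n = 7). TRSK was listed at 0 in all 3 media and CMK9 at 0 in primed cells. The highest differentiated values were those of L6 (34.95 RPM), L3 (31.9 RPM) and S6 (19.1 RPM), the same 3 lines in which differentiated NOTCH2 was low. Over all 21 PSC libraries NOTCH2 and DLL1 had a Pearson r of 0.038, and of -0.217 after the mean of each condition was taken off. DLL1 was below 3 reads in 6 of these libraries. The liver library had 29.3 RPM and the stomach library 15.2 RPM.

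The DLL1 difference of differentiated minus naïve-like was 1.59 (SE 0.77, adjusted p = 0.181), with 5 lines higher, CMK9 lower and TRSK equal at 0. With the line as a block in the fit the adjusted p was 0.0495. The difference of naïve-like minus primed was -0.42 (SE 0.77, adjusted p = 0.749) and that of differentiated minus primed 1.18 (SE 0.77, adjusted p = 0.322). Within lines the change from primed to naïve-like went from -2.48 in S12 to 3.27 in CMK9, so the lines did not move one way.

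**Figure D2:**
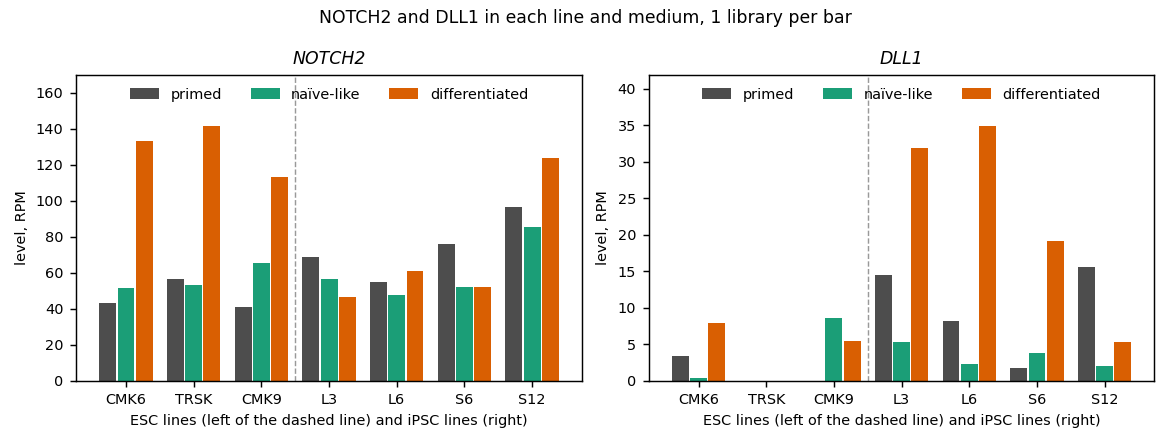
Level of NOTCH2 (left) and DLL1 (right) in RPM on the vertical axis for each of the 7 lines, 1 library per bar, coloured by medium. Differentiated NOTCH2 is at least 113.5 RPM in the 3 ESC lines and S12 and at most 60.9 RPM in L3, L6 and S6, and DLL1 has no bar in TRSK, where it was listed at 0.

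LFNG is a fringe, a sugar transferase of the Golgi that alters which ligands a Notch receptor answers to. It was at 7.51 to 18.2 RPM in primed cells (median 13.5), at 2.87 to 8.98 RPM in naïve-like cells (median 4.32) and at 2.09 to 8.64 RPM in differentiated cells (median 6.22). The primed libraries were the highest group, and the overlap came from primed CMK9, TRSK and S6, which stood between 7.51 and 8.94 RPM. The liver library had 3.78 RPM and the stomach library 8.94 RPM.

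LFNG fell by 1.19 on the log2 scale from primed to naïve-like cells (SE 0.30, adjusted p = 0.00901), from 3.69 ± 0.49 to 2.50 ± 0.51 (SD, n = 7), and was lower in 7 of 7 lines, with changes of -0.45 in S6 to -1.97 in CMK6. No rise was called when LIF and Dox were removed. The difference of differentiated (2.73 ± 0.58) minus naïve-like was 0.22 (SE 0.30, adjusted p = 0.701), and differentiated cells were lower than primed ones by 0.96 (SE 0.30, adjusted p = 0.0359), again in 7 of 7 lines. The second call was close to the threshold. It was lost without the filter (adjusted p = 0.0635) and without any 1 line other than CMK9 (adjusted p from 0.0594 without TRSK to 0.0787 without S6), at differences of -0.87 to -0.97. LFNG was the only expressed member called in differentiated against primed cells, against 7.13% of expressed genes lower and 6.27% higher.

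NCSTN encodes nicastrin, the γ-secretase subunit that holds the substrate. It was at 122.6 to 176.6 RPM in primed cells (median 134.6), at 88.9 to 137.6 RPM in naïve-like cells (median 103.5) and at 100.8 to 153.5 RPM in differentiated cells (median 108.3). The liver library had 103.9 RPM and the stomach library 127.5 RPM, both within the PSC range. TRSK had the highest level in each medium.

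The change of NCSTN was small and even across lines. It fell by 0.36 from primed to naïve-like cells (7.11 ± 0.19 to 6.75 ± 0.20, SD, n = 7, SE 0.12, adjusted p = 0.0343), in 7 of 7 lines and by between 0.24 (S6) and 0.47 (CMK9). The call was lost when any line but TRSK was left out, with adjusted p of 0.068 without S6 to 0.0828 without S12, while the size stayed between 0.35 and 0.39. It was also lost without the primed S12 library (adjusted p = 0.0641) and without the naïve-like CMK6 library (adjusted p = 0.0548). Differentiated cells (6.87 ± 0.23) differed from naïve-like ones by 0.12 (SE 0.12, adjusted p = 0.584) and from primed ones by -0.25 (SE 0.12, adjusted p = 0.175), a difference that passed with the line as a block (adjusted p = 0.0498) and was negative in 6 of 7 lines.

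RBPJ binds DNA and carries the receptor fragment to its targets. Its level was 37.9 to 84.7 RPM in primed cells (median 64.7), 68.7 to 96.9 RPM in naïve-like cells (median 75.1) and 42.4 to 76.0 RPM in differentiated cells (median 56.6). Naïve-like libraries were the most alike, with an SD of 0.16 on the log2 scale against 0.37 in primed and 0.30 in differentiated libraries. The liver library had 45.2 RPM and the stomach library 57.7 RPM.

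RBPJ fell by 0.51 on the log2 scale from naïve-like to differentiated cells (6.31 to 5.80, SE 0.16, adjusted p = 0.0315), in 7 of 7 lines, by 0.10 in S12 to 1.07 in S6. The call was lost without the filter (adjusted p = 0.0515) and without CMK6, CMK9, L3 or S6 (adjusted p = 0.0552, 0.0888, 0.0846 and 0.111). From primed to naïve-like cells the difference was 0.34 (SE 0.16, adjusted p = 0.139), positive in all lines but L6. Differentiated minus primed was -0.17 (SE 0.16, adjusted p = 0.501). The annotated gene overlaps 2 long non-coding RNA genes.

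HES1 is the repressor most often used as a readout of Notch activity. It was at 10.2 to 25.3 RPM in primed cells (median 15.3, lowest in S12 and highest in CMK9), at 1.04 to 11.7 RPM in naïve-like cells (median 7.88) and at 10.1 to 26.8 RPM in differentiated cells (median 19.1). The lowest naïve-like libraries, CMK6 with 1.04 RPM and L3 with 1.51 RPM, rest on 3 and 4 reads. The other 5 naïve-like libraries had 6.76 to 11.7 RPM, and of these TRSK and CMK9 reached into the ranges of the other media. The liver library had 58.7 RPM and the stomach library 40.5 RPM, both above all 21 PSC libraries.

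HES1 showed the largest fall of a member on conversion and the largest called rise after it. It fell by 1.43 on the log2 scale from primed to naïve-like cells (4.13 ± 0.48 to 2.71 ± 1.07, SD, n = 7, SE 0.37, adjusted p = 0.00953), which is 2.69-fold on the log2(RPM + 1) scale, in 7 of 7 lines, with changes of -0.36 in L6 to -3.36 in CMK6. It rose by 1.56 from naïve-like to differentiated cells (SE 0.37, adjusted p = 0.00599), in 7 of 7 lines by least in TRSK (0.31) and by most in L3. Differentiated (4.26 ± 0.48) minus primed was 0.13 (SE 0.37, adjusted p = 0.852). Without CMK6 or L3, the lines with the 2 lowest libraries, both calls held. In the ESC lines alone both were lost (adjusted p = 0.0864 for the fall and 0.179 for the rise). In the iPSC lines alone the fall was lost (adjusted p = 0.14) and the rise held (adjusted p = 0.0402). The rise was the only higher call among the expressed members in differentiated against naïve-like cells, where 6.41% of expressed genes were higher and 7.71% lower.

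**Figure D3:**
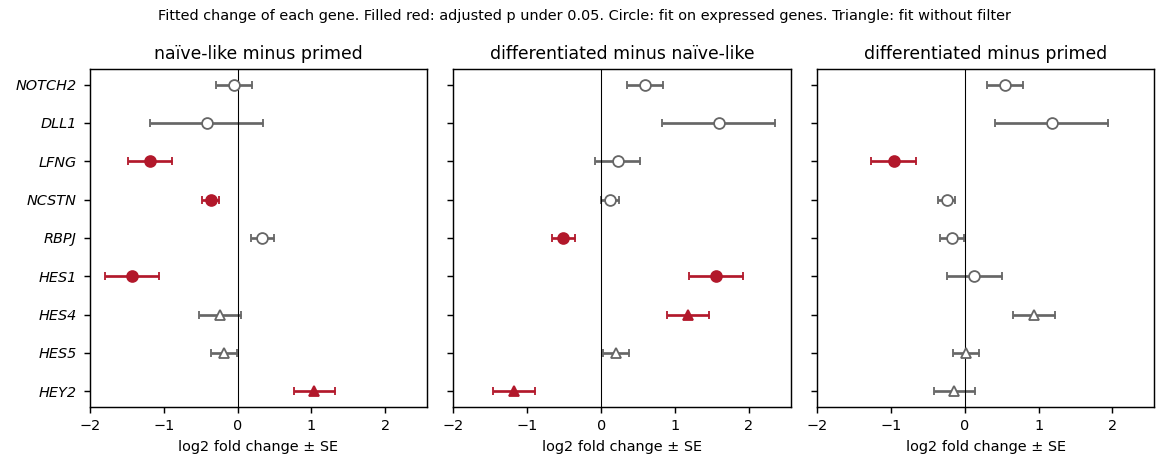
Fitted log2 fold change of each gene with its standard error (horizontal axis) in the 3 comparisons of conditions. Red filled marks have an adjusted p under 0.05, circles come from the fit on expressed genes and triangles from the fit without the filter, and the marks of HES1 and HEY2 lie on opposite sides of 0 in both comparisons with naïve-like cells.

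HES4, a repressor of the same family, was close to the limit of detection. It was at 0.06 to 1.76 RPM in primed cells (median 0.89), at 0 to 1.52 RPM in naïve-like cells (median 0.58) and at 1.27 to 4.97 RPM in differentiated cells (median 3.19). All 7 differentiated libraries held at least 3 reads (3 to 17), whereas 5 of 7 primed and 4 of 7 naïve-like libraries were below 3 reads. Differentiated CMK9 and TRSK (1.27 RPM each) and L6 (1.66 RPM) overlapped with primed cells. The liver library had 2.35 RPM and the stomach library 3.24 RPM.

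HES4 rose by 1.18 on the log2 scale from naïve-like to differentiated cells (0.63 ± 0.52 to 1.81 ± 0.55, SD, n = 7, SE 0.28, adjusted p = 0.0155), in all lines but TRSK. The call was lost with a pseudocount of 0.1 (adjusted p = 0.0619), without CMK6 (adjusted p = 0.0782) and without S6 (adjusted p = 0.0564). Differentiated minus primed (0.87 ± 0.48) was 0.94 (SE 0.28, adjusted p = 0.0574), and passed with the line as a block (adjusted p = 0.0274). Naïve-like minus primed was -0.24 (SE 0.28, adjusted p = 0.683).

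HEY2, a repressor of the related HEY family, had the opposite order. It was at 0 to 2.32 RPM in primed cells (median 0.31), at 1.11 to 3.46 RPM in naïve-like cells (median 2.04) and at 0 to 1.46 RPM in differentiated cells (median 0.29). The naïve-like libraries held 1 to 12 reads, and 2 of them (L6 and CMK9) were below 3 reads, as were 6 of 7 primed and 5 of 7 differentiated libraries. The highest primed value was 2.32 RPM in L6, from 2 reads in the library of lowest depth. Next came TRSK with 1.18 RPM from 4 reads, the only primed library with at least 3 reads. Both were above naïve-like L6 (1.11 RPM). HEY2 was at 0 in the liver and stomach libraries.

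HEY2 rose by 1.04 on the log2 scale from primed to naïve-like cells (0.62 ± 0.66 to 1.66 ± 0.38, SD, n = 7, SE 0.28, adjusted p = 0.026), in all lines but L6. It fell by 1.18 from naïve-like to differentiated cells (0.48 ± 0.49, SE 0.28, adjusted p = 0.0139), in 7 of 7 lines. Differentiated minus primed was -0.14 (SE 0.28, adjusted p = 0.851). With a pseudocount of 0.1 both calls were lost (adjusted p = 0.0821 and 0.0609). The rise was lost without CMK6, CMK9, L3, S6 or S12 (adjusted p of 0.0598 to 0.123), also when only the naïve-like CMK6 library was left out (adjusted p = 0.0536), and the fall without L3, S6 or S12 (adjusted p of 0.0514 to 0.063).

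HES5, the repressor best known from neural progenitors, was at 0 in 7 of 7 naïve-like, 4 of 7 primed and 6 of 7 differentiated libraries and in both somatic libraries. The other primed libraries (CMK6, L3 and S12) held 1 read each, at up to 0.44 RPM. Differentiated L6 was the one PSC library with at least 3 reads, 5 reads or 1.66 RPM. HES5 was thus not detectable at this depth in 20 of 21 PSC libraries, and its differences of -0.18, 0.20 and 0.02 did not pass the test (adjusted p = 0.583, 0.595 and 1.0).

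**Figure D4:**
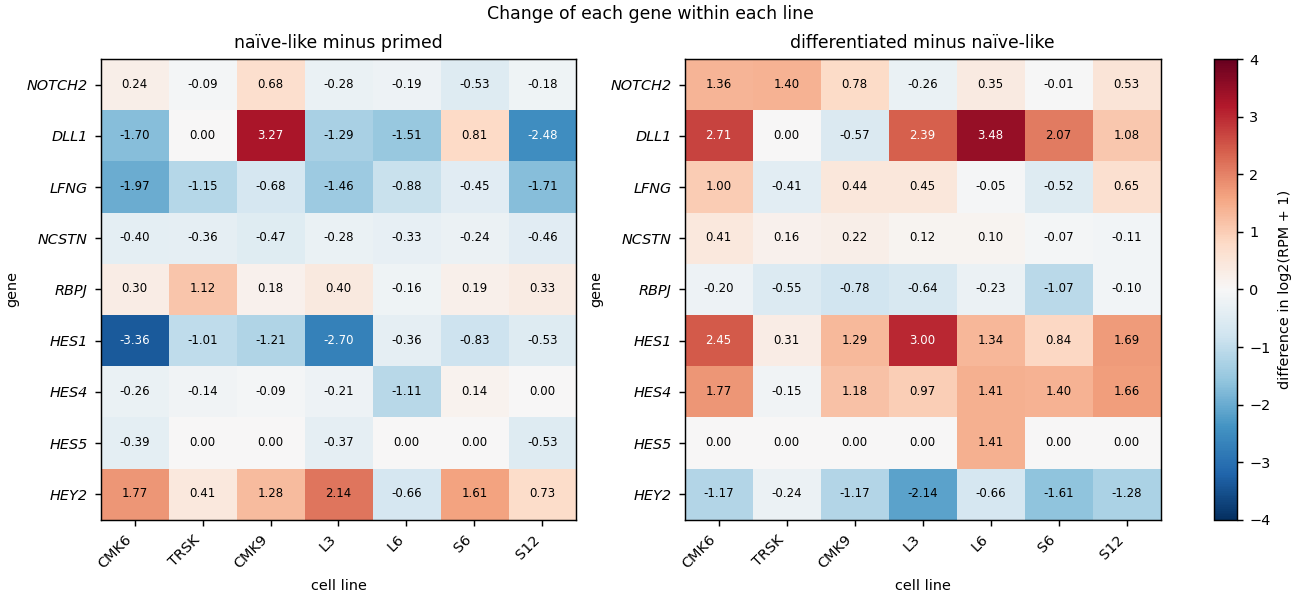
Difference in log2(RPM + 1) between media within each of the 7 lines, for naïve-like minus primed (left) and differentiated minus naïve-like (right), as colour and printed value, with genes in rows and lines in columns. HES1, LFNG and NCSTN are negative in all 7 lines on the left, and on the right HES1 is positive and RBPJ and HEY2 negative in all 7 lines.

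Read over lines, 3 of the 6 expressed members moved the same way in all 7 lines from primed to naïve-like cells (HES1, LFNG and NCSTN), where 16.0% of expressed genes did. From naïve-like to differentiated cells 2 of 6 did (HES1 and RBPJ), where 20.0% of expressed genes did, and from primed to differentiated cells 1 of 6 (LFNG), where 14.5% did. The 7 libraries of one condition stood fully apart from those of the other for 0 members in each comparison, whereas 4.07%, 4.36% and 3.24% of expressed genes did so for naïve-like against primed, differentiated against naïve-like and differentiated against primed cells. The median difference of the 6 expressed members was -0.39, 0.41 and -0.02 in the same order, beside 0.06, -0.02 and 0.05 over all expressed genes. Of the 3 low members 1 passed in naïve-like against primed cells (HEY2), 2 in differentiated against naïve-like cells (HES4 higher and HEY2 lower) and 0 in differentiated against primed cells, where 7.62%, 5.70% and 5.27% of the genes in the fit without the filter passed in either direction.

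Direction counts over all expressed genes depended on scaling. In naïve-like against primed cells 307 genes were higher and 227 lower, but with each library centred on its median 218 were higher and 261 lower. HES1, LFNG and NCSTN remained lower and past the threshold under that centring and under quantile normalization. Of 9 listed neural progenitor markers 3 were analysed here (NES, POU3F2 and FABP7), and their summed level was 281.1 to 571.4 RPM in primed, 96.9 to 380.8 RPM in naïve-like and 332.3 to 698.0 RPM in differentiated libraries. Most of it was NES, with medians of 348.3, 194.1 and 322.7 RPM. POU3F2 also had its lowest median in naïve-like cells (6.17, 1.75 and 10.6 RPM), but FABP7 had its lowest in primed cells (6.77, 10.4 and 46.2 RPM). The mesenchymal sum given above and its main gene COL1A2, with medians of 75.5, 25.6 and 101.4 RPM, were likewise lowest in naïve-like cells, whereas TWIST1 was highest there (7.08, 25.4 and 6.66 RPM). The part of either list in the HES1 result was not tested.

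Of 64 other listed genes of the pathway 16 were analysed here and 7 were expressed. In naïve-like against primed cells 0 of the 7 passed in either direction, and in each of the other comparisons 0 rose and 1 fell. Both calls were of DTX2, a ubiquitin ligase of the Deltex family that acts on Notch receptors. Of all expressed genes 7.71% were lower in differentiated than in naïve-like cells and 7.13% lower than in primed cells. A call of 1 among 7 genes does not set the list apart from these shares. DTX2 was at 12.1 to 25.3 RPM in primed (median 21.2), at 9.93 to 21.6 RPM in naïve-like (median 15.5) and at 2.66 to 14.6 RPM in differentiated cells (median 8.22). It fell by 0.94 from naïve-like to differentiated cells (SE 0.27, adjusted p = 0.0202) and was lower by 1.32 in differentiated than in primed cells (SE 0.27, adjusted p = 0.00171), each in 7 of 7 lines. The median difference of the 7 genes was 0.11 for naïve-like minus primed, 0.09 for differentiated minus naïve-like and 0.20 for differentiated minus primed.

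The other 6 expressed genes of the list did not pass the test. The corepressor HDAC1 differed by -0.70 (SE 0.24) between differentiated and naïve-like cells, with an adjusted p of 0.0518, and was lower in 7 of 7 lines. With the line as a block it passed (adjusted p = 0.00187), as did its difference of -0.54 between differentiated and primed cells (adjusted p = 0.138 without and 0.0106 with the block). The corepressor CTBP1 differed by 0.59 (SE 0.21) between differentiated and primed cells, with an adjusted p of 0.0604 that became 0.0471 with the block. The γ-secretase subunit PSEN2, the receptor glycosyltransferase POGLUT1, the deacetylase HDAC2 and the cyclin CCNC passed in no comparison, with or without the block.

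The remaining 9 listed genes were below the filter, and of them DLK2 passed. It was called in naïve-like against primed and in differentiated against naïve-like cells. In these comparisons 7.62% and 5.70% of the genes in the fit without the filter passed. DLK2 is a membrane protein related to the Notch ligands, without the domain by which they activate receptors. It was at 0 to 1.76 RPM in primed (median 1.23), 1.38 to 6.05 RPM in naïve-like (median 3.50) and 0 to 1.33 RPM in differentiated cells (median 0.21). DLK2 rose by 1.14 from primed to naïve-like cells (SE 0.30, adjusted p = 0.022) and fell by 1.60 afterwards (SE 0.30, adjusted p = 0.00214), each in 7 of 7 lines. NOTCH4, MIB2, APH1A, KAT2B, SPEN, HES2 and HES3 passed in no comparison, with or without the block. HEYL, another HEY repressor, had medians of 4.41, 0.86 and 2.12 RPM in primed, naïve-like and differentiated cells, against 32.3 RPM in the liver and 57.7 RPM in the stomach library. Its difference of naïve-like minus primed was -1.24 (SE 0.39, adjusted p = 0.0597, and 0.049 with the block).

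Proneural genes are a group that HES proteins are known to repress. Of 16 listed genes 6 were analysed here and 0 passed the filter, with levels of up to 6.38 RPM for NHLH2 and 4.00 RPM for OLIG3, and with NEUROD6, OLIG1 and OLIG2 at 0 in all PSC libraries. Of the 3 genes that could be fitted (NHLH1, NHLH2 and OLIG3), NHLH2, a neuronal transcription factor, was called. The call was in differentiated against primed cells, where 5.27% of the genes in the fit without the filter passed. NHLH2 had medians of 0, 0 and 3.33 RPM in primed, naïve-like and differentiated cells and was higher by 1.46 in differentiated than in primed cells (SE 0.41, adjusted p = 0.0379), in 7 of 7 lines. Its difference of differentiated minus naïve-like was 1.24 (SE 0.41), with an adjusted p of 0.0804 that became 0.0416 with the block.

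Across the 21 PSC libraries the levels of HES1 and HEY2 ran against each other, with a Pearson r of -0.767, and of -0.504 after the mean of each condition was taken off. DLL1 and LFNG ran together, with r of 0.445, and of 0.760 within conditions. These are the strongest negative pair over all libraries and the strongest positive pair within conditions among all pairs of the 8 members other than HES5. Within conditions NCSTN ran against DLL1 (r = -0.554) and against LFNG (r = -0.480). HEY2 was below 3 reads in 13 of the 21 libraries, HES4 in 9 and DLL1 in 6. Correlations of these genes, here and below, thus rest in part on values treated as not detectable. All these correlations describe libraries that share lines and media. By the same measure the expressed genes most like HES1 were COL9A1 (r = 0.801), ELOVL2 (r = 0.794) and DDR1 (r = 0.792), those most like LFNG were FSCN1 (r = 0.809), PSMD2 (r = 0.788) and ID4 (r = 0.785), and those most like NCSTN were HDGF (r = 0.784), EVA1B (r = 0.773) and PTPN14 (r = 0.734). For RBPJ they were TASOR (r = 0.827), LRWD1 (r = 0.802) and CDC73 (r = 0.801), for HES4 PPIE (r = 0.721), GNB2 (r = 0.706) and YBX1 (r = 0.700), and for HEY2 ZYG11A (r = 0.818), STT3B (r = 0.757) and CREB3L4 (r = 0.746).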

How the data were processed

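SC3-seq libraries were made by the authors from 1 ng of total RNA. Per the labels and methods, reads were trimmed, mapped and turned into expression levels with Cufflinks without use of strand. The submitters' processing notes name cutadapt 1.3, TopHat 1.4.1 and Cufflinks 2.2.0. The values the authors deposited are RPM, with 1 column per library and no pooling. The RPM of the genes analysed here made up 24.8% to 27.5% of a library. A last row that was cut short (1 gene) was left out, which left 8415 genes. NOTCH2 and NCSTN were found by gene ID in the RefSeq annotation. Depth was taken from the RPM of 1 read. Between 86.9% and 94.8% of low values in a library were whole multiples of it (tolerance 0.01 of a step). The others were not, and RPM are not counts, so tests for counts were not used. LFNG values in most libraries, and the HES4 value in primed CMK9 (0.5 reads), were not whole reads.

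Values were log2(RPM + 1), filtered above 4 in at least 1 PSC library, as in the study's methods, and compared with limma 3.58.1 in R 4.3.3 (mean-variance trend, two-sided, adjusted over all genes tested). The fit was also run on simulated libraries that were independent of each other, with changes placed only in well expressed genes. That run cannot speak to the shared lines or to low genes such as HES4 and HEY2. Tables used Python 3.11.15 with pandas 2.3.3. Lines are shared between conditions by their labels, and libraries of the same line deviated together (mean r of 0.269 over 21 pairs, lowest 0.0304, against -0.0446 over 126 pairs of different lines), so the line as a block was an alternative. Members and lists were chosen with earlier results of these data known. Named are all members, list genes past the threshold and, for each called member, the 3 expressed genes with the highest r. Values of HDAC1, CTBP1 and HEYL are given because of their block results, chosen after their values were seen. The p-values measure the spread between lines, of which 4 share 1 donor. Alternatives were the pseudocount, filters, scaling, trend, block, the 2 conditions alone, each line left out, 2 libraries that stood apart in an earlier analysis left out, and ESC or iPSC lines alone.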

Additional observations from a re-analysis of the deposited data

Results flagged for a closer look

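HES5 in the differentiated library of line L6 was the only differentiated value above 0 among 7. Its gap to the nearest of them was 1.0 of the whole range, above Dixon's critical value for 7 samples, since L6 had 1.66 RPM (5 reads) and the others were at 0. With all others at 0 any value above 0 gives this gap, so it says nothing of how far L6 stands from them. Of 26 groups of 7 libraries tested over the members this was the only one, and chance alone gives about 1.3.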

How the results depend on the processing

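Over the members' differences and their alternatives, 414 values kept direction and side of the threshold, 53 lost a call, 8 gained one and 14 turned direction. With the line as a block the genes called went from 534 to 724 for naïve-like against primed, from 392 to 550 for differentiated against naïve-like and from 372 to 585 for differentiated against primed cells, and the expressed members called in the last from 1 to 2. Besides DLL1, NCSTN and HES4 the block changed no member's call. Leaving out 1 line or library gave 302 to 527, 219 to 420 and 241 to 403 genes and 2 to 3, 1 to 2 and 0 to 1 expressed members in the same order, with the fewest genes without L3, CMK6 and S6. The ESC lines alone gave 54, 174 and 127 genes and 0, 1 and 1 members, and the iPSC lines alone 381, 147 and 288 genes and 0, 1 and 0 members. Both come from 1 fit of all 21 libraries in 6 groups, with fewer lines behind each difference. The calls of HES1 and LFNG in naïve-like against primed cells were lost in both (adjusted p of 0.0509 to 0.14). Their differences were -1.86 in ESC and -1.10 in iPSC lines for HES1 and -1.26 and -1.13 for LFNG. That of NCSTN was lost in both too (adjusted p = 0.236 and 0.162). The HES1 rise in differentiated against naïve-like cells was lost in ESC lines (1.35, adjusted p = 0.179) and held in iPSC lines (1.72, adjusted p = 0.0402). Every other call of a member was lost in both. Without the filter 1 of the 6 expressed members (HES1) was called in differentiated against naïve-like and 0 in differentiated against primed cells, and under the stricter filter 0 in the latter, since LFNG was not tested there. The HEY2 rise was also lost with only the 2 conditions in the fit (adjusted p = 0.0522). HES4 in differentiated against primed cells passed under quantile normalization (adjusted p = 0.0321), without the trend (0.0445) and without TRSK (0.025).

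The turned directions were of differences that did not pass the test. For naïve-like minus primed NOTCH2 ran from -0.174 (without CMK9) to 0.061 (without the primed S12 library) when 1 line or library was left out, with 0.028 without S6, and was 0.272 in ESC lines, and DLL1 was 0.522 in ESC lines. For differentiated minus primed, with 1 line left out, HES1 ran from -0.041 (without S12) to 0.305 (without CMK6), with -0.012 without L6, HES5 from -0.215 (without L6) to 0.109 (without S12) and HEY2 from -0.264 (without CMK6) to 0.056 (without L6). In ESC lines they were -0.514, -0.129 and 0.293, and RBPJ was 0.021. HES5 was -0.329 with a pseudocount of 0.1, and NOTCH2 was -0.142 in iPSC lines. The cause was not tested. Depth limits HES4, HES5 and HEY2 most, whose values are a few reads per library, and intervals for counting error were not computed since the values are not counts.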
